A study of Mus musculus with 8 samples.

Results

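The 9 genes described here encode epidermal lipoxygenases and enzymes of the skin's lipid barrier: Alox12b, Alox12e, Aloxe3 and Alox8, and Abca12, Cers3, Elovl4, Ugcg and Pnpla1. They were picked by gene symbol, with earlier results of these data known. All 9 of 9 were found, each with 1 probe set, among 19935 genes measured on Affymetrix Mouse Gene 1.0 arrays. The comparison was between 4 Adam10 knockout samples (titled cKO, usually short for conditional knockout, with the numbers P67, P68, P69 and P55) and 4 Adam10 wild-type samples (P57 to P60), all mouse skin, 1 array per sample. The labels call the material both skin tissue and primary skin cells. The labels state neither strain, age, deleted exons, Cre driver nor the cells that lost Adam10, and neither the meaning of the P numbers nor whether each sample was a separate animal. Values are log2 of the deposited intensities, and differences are knockout minus wild type on that scale.

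The water barrier of the epidermis is made in its upper layers. Keratinocytes there build ceramides that carry very long fatty acids, pack them into lamellar granules and secrete them. Some of these ceramides, esterified with linoleate, are oxidised by lipoxygenases and then bound to the proteins of the cornified envelope. Elovl4 lengthens the fatty acids, Cers3 joins them to the sphingoid base, Pnpla1 adds the linoleate, Ugcg attaches glucose and Abca12 loads the lipid into the granules. Alox12b and Aloxe3 act one after the other on the linoleate. Inherited loss of ALOX12B, ALOXE3, ABCA12, CERS3 or PNPLA1 causes ichthyosis in humans. Alox12e and Alox8 are lipoxygenases of mouse skin that act on arachidonate and related fatty acids. Adam10 is a protease at the cell surface, and Notch receptors are among its substrates.

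The arrays differed in ways that touch the values below. Adam10 was at 6.79 to 7.04 in knockouts, against 7.06 to 7.39 in wild type, a difference of -0.36 (SE 0.11, limma adjusted p = 0.064, exact two-sided permutation p = 0.0286, the smallest that 70 assignments allow). Epidermal markers were present on every array, with 14 of 16 listed granular and cornified genes measured and summed intensities of 22750 to 25320 in knockouts, against 18700 to 26290 in wild type. Of these genes 1 rose (Klk7) and 1 fell (Casp14) at a limma adjusted p below 0.05, against 6.41% higher and 2.34% lower over all genes. Among them, Krt2 alone lay on average below the 25th percentile of the arrays. Of 9 listed spinous genes 7 were measured, of which 1 rose and 1 fell. Their summed intensity was 15220 to 17080 in knockouts, against 14850 to 18510 in wild type. Wild-type array 4 stood apart. Its 12 skeletal muscle markers summed to 7873 there, against 227.3 to 275.9 in knockouts and 275.0 to 1189 on the other wild-type arrays, and dermal fibroblast (8 of 8 listed measured) and adipocyte markers (8 of 9) were also highest there. Its summed granular level was the lowest of the 8 arrays. Basal keratinocyte markers summed to 13540 to 15350 in knockouts, against 7855 to 10700 in wild type. Of these 10 genes 9 rose, against 6.41% of all genes. In bulk samples, fewer cells of a type and less RNA per cell cannot be told apart.

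Of the 9 genes, Alox12e fell and the other 8 did not pass the test. Over all 19935 genes 2.34% were called lower and 6.41% higher (limma, Benjamini-Hochberg adjusted p below 0.05), and 1 fall and 0 rises among 9 genes are too few to set the group apart from that background. The split over all genes, 467 lower and 1277 higher, was 497 and 847 after quantile normalization, 286 and 2453 after median centring and 582 and 769 after cyclic loess. At an unadjusted p below 0.05, 3 of the 9 passed (Alox12e, Alox8 and Ugcg), against 25.1% of all genes, which is near that background. The median difference of the 9 genes was -0.025, against 0.0027 over all genes. Of the 9 differences 5 lay below 0 and 4 above, against 9879 and 10056 of the 19935 genes. No knockout value overlapped a wild-type value for Alox12e and Alox8, both lower in knockout, a pattern seen for 5.86% of all genes.

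**Figure D1:**
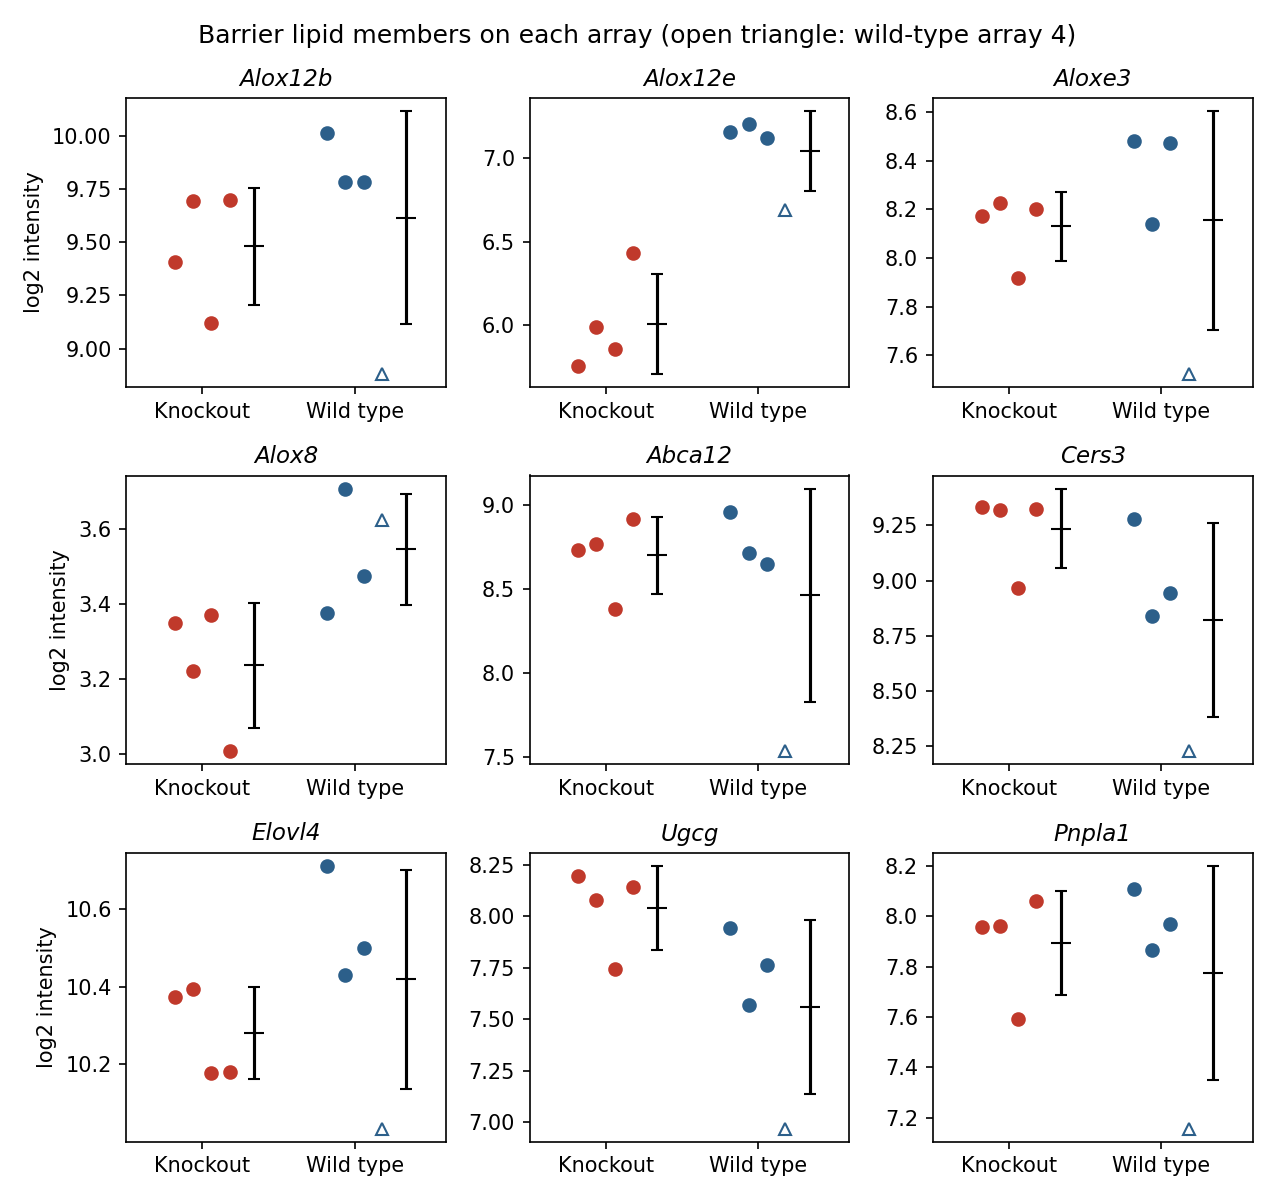
Log2 intensity (vertical axes) of the 9 genes on 4 knockout arrays (red, left) and 4 wild-type arrays (blue, right), each point 1 array, with the mean and SD of each group as a bar beside the points. Alox12e separates by genotype, while wild-type array 4 (open triangle) is the lowest of the 8 arrays for 7 of the 9 genes.

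Alox12e, a lipoxygenase of mouse epidermis whose human counterpart is a pseudogene, is described first because it is the member that changed. It was at 5.76, 5.99, 5.86 and 6.43 in knockouts 1 to 4, against 7.16, 7.20, 7.12 and 6.69 in wild types 1 to 4. The groups did not overlap, and the nearest pair was knockout 4 and wild type 4, the highest and the lowest of their groups. The means were 6.01 ± 0.30 in knockout and 7.04 ± 0.24 in wild type (SD, n = 4), a difference of -1.03 (SE 0.17, 95% interval -1.40 to -0.66, limma adjusted p = 0.0060), so that intensity fell by 51.1%. The call held in each of the 22 other settings tried, with differences of -1.21 to -0.88. Some of these could not move it: the thresholds of 0.01 and 0.10 reuse the same fit, and averaging probe sets leaves its 1 probe set unchanged. Without wild-type array 4 the difference was -1.15 (limma adjusted p = 0.0018), and without wild-type arrays 3 and 4 it was -1.17 (limma adjusted p = 0.0091). With each array centred on 21 spinous and granular markers it was -1.004 (limma adjusted p = 0.0062). The part of the higher basal marker level of the knockouts in this difference was not tested.

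The 6 lipoxygenase genes measured on chromosome 11 lie in 2 runs in the RefSeq gene order of GRCm38.p6. Aloxe3, Alox12b and Alox8 follow each other with 0 protein-coding genes between them, and after 64 further protein-coding genes Alox12, Alox12e and Alox15 do the same. Alox12, the platelet-type lipoxygenase and the direct neighbour of Alox12e, was at 5.22, 5.32, 4.91 and 5.98 in knockouts and 7.24, 7.13, 7.11 and 6.50 in wild type. The groups did not overlap, a pattern seen in this direction for 5.86% of all genes. Knockout 4 was again the highest knockout and wild type 4 the lowest wild type. Its difference was -1.64 (SE 0.23, 95% interval -2.15 to -1.13, limma adjusted p = 0.0038), with wild type 3.12-fold over knockout, and it passed in each of the 22 other settings. Alox15, on the other side of Alox12e, was at 3.07 to 3.83 in knockouts, against 3.76 to 4.32 in wild type, with a difference of -0.48 that did not pass (SE 0.19, limma adjusted p = 0.15). Alox12 and Alox12e are related in sequence, and whether probes of either detect transcripts of the other was not tested.

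The regions around the listed gene starts are shown for the neighbouring pair that fell and for Alox12b, a lipoxygenase of the other run whose difference did not pass. Each holds 300 bases from RefSeq (GRCm38.p6), 250 before and 50 from the start on, written along the gene. Alox12e is at chr11:70322481-70322780 (minus strand), Alox12 at chr11:70255321-70255620 (minus strand) and Alox12b at chr11:69156822-69157121 (plus strand). Capitals mark matches on either strand to the GC box GGGCGG and to TGGGAA, the core motif of the Notch pathway factor RBPJ.
Alox12e: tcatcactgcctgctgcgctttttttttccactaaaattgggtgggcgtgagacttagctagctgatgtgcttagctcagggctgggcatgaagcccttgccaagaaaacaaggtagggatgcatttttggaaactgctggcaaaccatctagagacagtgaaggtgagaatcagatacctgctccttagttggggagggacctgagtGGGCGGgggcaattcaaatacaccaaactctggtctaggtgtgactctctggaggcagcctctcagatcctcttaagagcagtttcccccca
Alox12: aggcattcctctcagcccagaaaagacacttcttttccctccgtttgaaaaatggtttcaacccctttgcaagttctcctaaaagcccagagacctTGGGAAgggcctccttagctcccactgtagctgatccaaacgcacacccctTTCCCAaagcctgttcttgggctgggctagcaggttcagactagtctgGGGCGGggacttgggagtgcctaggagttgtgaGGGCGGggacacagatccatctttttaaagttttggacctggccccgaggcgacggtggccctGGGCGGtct
Alox12b: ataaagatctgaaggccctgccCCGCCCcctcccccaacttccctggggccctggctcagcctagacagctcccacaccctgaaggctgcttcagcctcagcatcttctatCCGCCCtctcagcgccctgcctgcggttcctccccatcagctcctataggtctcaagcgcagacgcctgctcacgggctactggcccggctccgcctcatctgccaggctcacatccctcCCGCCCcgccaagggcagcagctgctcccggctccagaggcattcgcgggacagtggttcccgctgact

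Alox12 held 2 matches to TGGGAA, while the regions of Alox12e and Alox12b held 0, and 25.6% of all 32851 RefSeq regions of this length hold at least 1. GGGCGG matched 1 time in Alox12e, 3 times in Alox12 and 3 times in Alox12b, and 35.7% of all regions hold it. Of the 9 members 8 were matched to such a region, all but Aloxe3, and 1 of these (Elovl4) held TGGGAA. None of the 8, nor Alox12, held the AP-1 motif TGANTCA (7.81% of all regions), the Grainyhead-like motif AACCGGTT (0.146%) or the PPAR motif, 2 copies of AGGTCA with 1 base between them (0.0396%). The region of Acer1, a gene described below that also fell, held 0 matches to each of these motifs, TGGGAA and GGGCGG included. The marked matches in the 3 printed regions did not overlap one another, and a match is letters in a window, not a measured binding site.

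Alox12b and Aloxe3, the successive lipoxygenases of the bound lipid envelope, did not pass. Alox12b was at 9.41, 9.70, 9.12 and 9.70 in knockouts and 10.01, 9.78, 9.79 and 8.88 in wild type, so wild types 1 to 3 lay above every knockout and wild type 4 below every knockout. Its difference was -0.14 (95% interval -0.65 to 0.38, limma adjusted p = 0.76), and -0.38 without wild-type array 4 (95% interval -0.71 to -0.050, limma adjusted p = 0.14). Aloxe3 was at 8.17, 8.23, 7.92 and 8.20 in knockouts, against 8.48, 8.14, 8.47 and 7.52 in wild type, with wild type 4 again lowest. Its difference was -0.025 (95% interval -0.46 to 0.41, limma adjusted p = 0.95), and -0.23 without wild-type array 4 (95% interval -0.51 to 0.037). With the mean of the muscle markers as a covariate, the difference was -0.52 for Alox12b (limma adjusted p = 0.084) and -0.32 for Aloxe3 (limma adjusted p = 0.27), and neither passed.

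Alox8, a lipoxygenase that phorbol ester induces in mouse skin, was dim. It was at 3.35, 3.22, 3.37 and 3.01 in knockouts and 3.38, 3.71, 3.48 and 3.62 in wild type, while the 25th percentiles of the arrays were 2.83 to 3.03. The groups did not overlap, but knockout 3 and wild type 1 lay next to each other. The difference of -0.31 did not pass over all genes (SE 0.12, 95% interval -0.57 to -0.052, limma adjusted p = 0.13).

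The enzymes that build the ceramide gave values in both directions, and none passed. Elovl4, the elongase of the very long fatty acids, was at 10.37, 10.39, 10.18 and 10.18 in knockouts and 10.71, 10.43, 10.50 and 10.03 in wild type. Wild types 1 to 3 lay above all 4 knockouts and wild type 4 below them, and the difference was -0.14 (95% interval -0.45 to 0.18, limma adjusted p = 0.58), or -0.27 without wild-type array 4 (limma adjusted p = 0.16). Cers3, the ceramide synthase of the epidermis and testis, was at 9.33, 9.32, 8.96 and 9.32 in knockouts, against 9.28, 8.84, 8.94 and 8.23 in wild type. Knockouts 1, 2 and 4 lay above all wild types, and the difference was 0.41 (95% interval -0.026 to 0.85, limma adjusted p = 0.22), or 0.21 without wild-type array 4 (95% interval -0.089 to 0.52).

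Ugcg, the glucosyltransferase that makes the transport form of these ceramides, had the highest difference of the 9. It was at 8.20, 8.08, 7.74 and 8.14 in knockouts and 7.94, 7.57, 7.76 and 6.97 in wild type. Knockouts 1, 2 and 4 again lay above all wild types and knockout 3 below 2 of them, and the difference of 0.48 did not pass (95% interval 0.043 to 0.91, limma adjusted p = 0.16). It was 0.28 without wild-type array 4 (95% interval -0.018 to 0.58, limma adjusted p = 0.22).

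Pnpla1, the transacylase that adds linoleate, was at 7.96, 7.96, 7.59 and 8.06 in knockouts and 8.11, 7.87, 7.97 and 7.16 in wild type, with the groups mixed apart from wild type 4. Its difference was 0.12 (95% interval -0.32 to 0.56, limma adjusted p = 0.75), and -0.087 without wild-type array 4. Abca12, the lipid transporter of lamellar granules, was at 8.73, 8.77, 8.38 and 8.92 in knockouts, against 8.96, 8.72, 8.65 and 7.53 in wild type. Its difference was 0.24 (95% interval -0.36 to 0.84, limma adjusted p = 0.62), and -0.074 without wild-type array 4. For both genes the sign thus changed without this array, and neither value passed. The sign of Pnpla1 also changed with all 8 arrays kept, under cyclic loess (-0.015). With the muscle marker covariate the differences were 0.092 for Cers3, 0.18 for Ugcg, -0.35 for Elovl4, -0.20 for Pnpla1 and -0.26 for Abca12, and none passed.

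**Figure D2:**
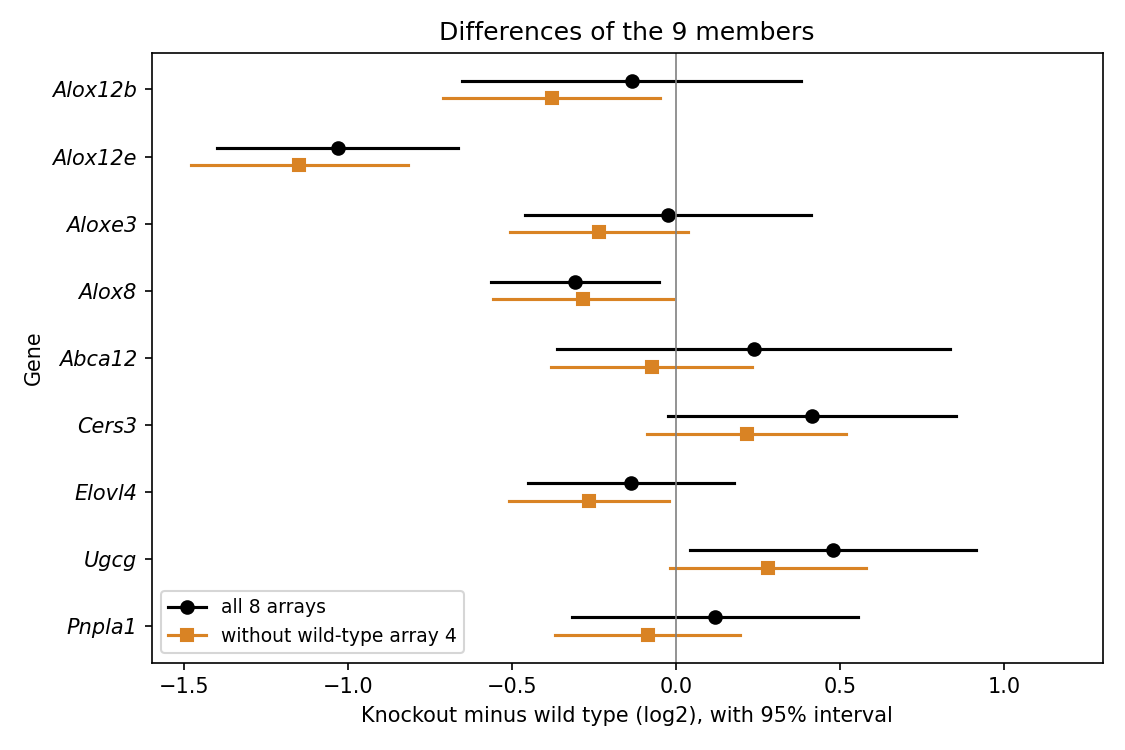
Knockout minus wild type (log2, horizontal axis) for each of the 9 genes, with its 95% interval from limma, over all 8 arrays (black circles) and without wild-type array 4 (orange squares). The interval of Alox12e lies wholly below 0 in both fits, and the estimates of Abca12 and Pnpla1 change sign between them.

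The low values on wild-type array 4 were shared by most members. It was the lowest of the 8 arrays for 7 of the 9 genes, against 23.9% of all genes. Relative to the mean of wild-type arrays 1 to 3 it was lower by amounts whose signed values ran from -1.24 for Abca12 to -0.47 for Alox12e, with Alox8 at 0.10. The SD among knockouts was below that among wild types for 7 of the 9 genes, Alox12e and Alox8 being the exceptions. With this array left out, 1 member (Alox12e) was called lower and 0 higher, against 3.25% and 6.77% of all genes. Without wild-type arrays 3 and 4 the counts were also 1 and 0, against 1.68% and 2.96%.

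Within each array, Alox12e was then set against each other member, so that a shift common to the array cancels. The genotype difference of Alox12e minus the other gene ran from -1.51 against Ugcg to -0.72 against Alox8. For 7 of the 8 pairs the highest knockout value was below the lowest wild-type value, and against Alox8 they overlapped. Alox12e was set against the others because it separated the genotypes, and the 8 pairs share its values, so they describe that separation again and are not separate support. Against Alox12b, the within-array difference was -3.47 ± 0.24 in knockout and -2.58 ± 0.28 in wild type (SD, n = 4), and these values carry meaning only as a contrast between genotypes, since levels of different probe sets are not on 1 scale.

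The 5 genes with values most like those of Alox12e over the 8 arrays, by mean absolute difference of centred log2 values among 9967 brighter genes, were Hspa12a (0.090), Acsl4 (0.097), Rhbg (0.098), Car13 (0.10) and Aldoc (0.10). Acsl4 is an acyl-CoA synthetase that prefers arachidonate, Rhbg an ammonium transporter, Car13 a carbonic anhydrase and Aldoc an aldolase. Their differences of -1.13 to -0.85 follow from how they were chosen. For Alox12b the nearest were Scnn1a (0.067), a subunit of the epithelial sodium channel, Frmpd1 (0.072), Krt78 (0.078), an epithelial keratin, Tmcc3 (0.084) and Fhdc1 (0.086), with differences of -0.17 to -0.0034.

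Around the 9 members, 83 further genes of barrier lipid metabolism were measured in 7 lists, and 6 of them fell, 5 rose and 72 did not pass. The background over all genes was 2.34% lower and 6.41% higher. The 83 genes had a median difference of -0.11, against 0.0027 over all genes. The counts depend on single arrays. They were 12 lower and 8 higher without wild-type array 4, against 3.25% and 6.77% of all genes. Without knockout array 2 they were 2 lower and 3 higher, against 0.808% and 2.14%, so the calls over all genes dropped as well. Without wild-type arrays 3 and 4 they were 8 lower and 4 higher, against 1.68% and 2.96%. They were 4 lower and 3 higher without knockout array 1 (1.15% and 3.42% of all genes), 5 and 3 without wild-type array 2 (1.25% and 3.72%), and 5 and 3 without wild-type array 3 (1.02% and 2.74%).

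**Figure D3:**
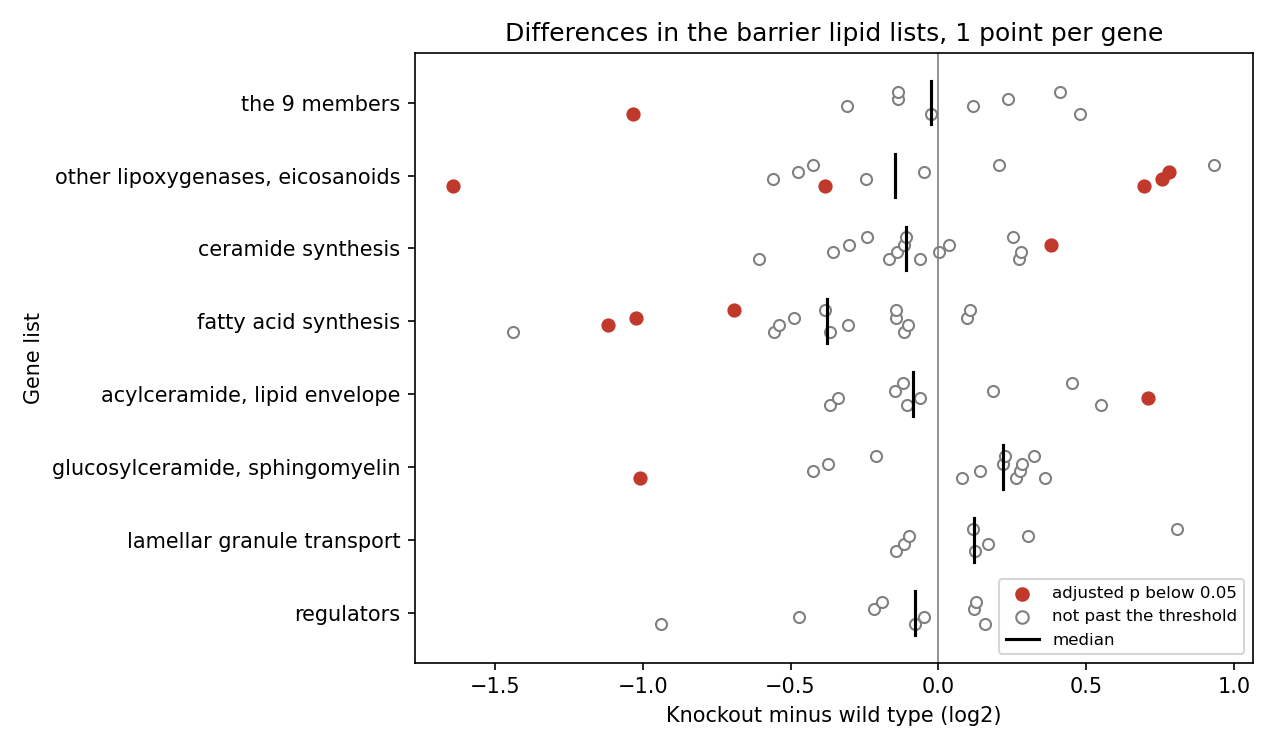
Knockout minus wild type (log2, horizontal axis) of every measured gene in the 9 members and the 7 wider lists (rows), each point 1 gene, filled red where the limma adjusted p was below 0.05, with the list median as a black line. Filled points lie on both sides of 0 among the other lipoxygenases and eicosanoid genes, while all 3 filled points of fatty acid synthesis lie below 0. Over all genes 2.34% were called lower and 6.41% higher.

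Among 12 measured genes of other lipoxygenases and eicosanoid synthesis, 3 rose and 2 fell (list median -0.15). Over all genes, 6.41% were called higher and 2.34% lower. Ptges, the inducible prostaglandin E synthase, was at 7.76, 7.55, 7.16 and 7.30 in knockouts and 6.73, 6.62, 6.72 and 6.58 in wild type, a difference of 0.78 (SE 0.13, limma adjusted p = 0.0076). All 4 knockouts lay above all 4 wild types. Ptgs2, the inducible cyclooxygenase that feeds it, was at 4.62, 4.18, 4.56 and 4.56 in knockouts, against 3.61, 3.92, 3.74 and 3.86 in wild type (difference 0.70, SE 0.12, limma adjusted p = 0.0087). Ephx1, the microsomal epoxide hydrolase, was at 7.06, 7.25, 7.15 and 6.88 in knockouts and 6.48, 6.17, 6.40 and 6.27 in wild type (difference 0.76, SE 0.11, limma adjusted p = 0.0046). Knockout and wild-type values of Ptgs2 and Ephx1 did not overlap either. All 4 knockouts lay above all 4 wild types for 12.2% of all genes. These 3 genes were named because they were called, so their separation is no separate support. All 3 genes kept their calls with any single array left out. Ptgs2 lost its call with each array centred on the spinous and granular markers (0.73, limma adjusted p = 0.055), and with an offset of 16 added before log2 its difference was 0.37 and passed. Ephx3, the epoxide hydrolase of the epidermal lipoxygenase pathway, had a difference of 0.21 that did not pass (95% interval -0.18 to 0.59, limma adjusted p = 0.49).

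Alox12 and Alox5 were the genes of that list that fell. Alox5, the leukocyte lipoxygenase of leukotriene synthesis, was at 3.78, 3.51, 3.76 and 3.77 in knockouts and 4.02, 4.21, 4.10 and 4.02 in wild type (difference -0.38, SE 0.10, limma adjusted p = 0.041). Neither gene showed overlap between the groups, and 5.86% of all genes had all knockouts below all wild types. The call of Alox5 was lost in 7 of the 8 fits that left out 1 array, all but that without wild-type array 4, with limma adjusted p up to 0.12. With the offset of 16 its difference was -0.18 and passed. Macrophage markers were also lower in knockouts as a group. Of 10 measured, 6 fell and 0 rose, against 2.34% lower and 6.41% higher over all genes. Their summed intensity was 195.7 to 268.4 in knockouts, against 393.2 to 674.5 in wild type, with Cd163 below the 25th percentile. The sum was highest on wild-type array 4 (674.5), where Alox5 had its lowest wild-type value (4.015). The part of macrophage RNA in the value of Alox5 was not tested.

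Of 16 genes of fatty acid elongation and desaturation 3 fell and 0 rose, with 14 differences below 0 and a list median of -0.37. Over all genes 2.34% were called lower and 6.41% higher, and 9879 of 19935 differences lay below 0. Scd2, a stearoyl-CoA desaturase, was at 7.98, 8.10, 7.83 and 8.83 in knockouts, against 9.25, 9.72, 9.20 and 9.04 in wild type (difference -1.12, SE 0.22, limma adjusted p = 0.014). The groups did not overlap, a pattern seen in this direction for 5.86% of all genes, and knockout 4 lay nearest to wild type. Elovl3, an elongase of sebaceous glands and hair follicles, had means of 2.52 ± 0.33 in knockout and 3.54 ± 0.35 in wild type (SD, n = 4, difference -1.02, SE 0.20, limma adjusted p = 0.014), and Fa2h, the fatty acid hydroxylase, 2.69 ± 0.12 in knockout and 3.38 ± 0.38 in wild type (difference -0.69, SE 0.17, limma adjusted p = 0.034). Knockout values of both lay at or below the 25th percentiles of the arrays, apart from knockout 1 for Elovl3. With an offset of 16 added before log2, which shrinks changes of dim genes, the difference was -0.35 for Elovl3, which passed, and -0.24 for Fa2h, which did not (limma adjusted p = 0.064).

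Scd2 and Elovl3 lost their calls without knockout array 2 (limma adjusted p = 0.055 for each), and Fa2h in 6 of the 8 fits that left out 1 array, all but those without wild-type array 3 or 4 (limma adjusted p up to 0.10). Sebocyte markers, a list that also holds Elovl3 and Scd1, were lower as well. Of 10 measured, 3 fell, Elovl3 itself among them, and 0 rose, against 2.34% lower and 6.41% higher over all genes. Their summed intensity was 1697 to 2140 in knockouts, against 2504 to 2857 in wild type. Awat2 was the sebocyte marker below the 25th percentile. The part of sebaceous gland RNA in these values was not tested.

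Acer1, the alkaline ceramidase of the upper epidermis, fell, and the other 12 of 13 measured genes of glucosylceramide and sphingomyelin processing did not pass. Over all genes 2.34% were called lower, and 5.86% had all knockouts below all wild types. Acer1 was at 8.12, 8.01, 7.83 and 7.90 in knockouts and 9.17, 8.93, 9.04 and 8.75 in wild type. Its groups did not overlap, and the gap between them was wider than the range within either. The difference was -1.01 (SE 0.11, 95% interval -1.26 to -0.75, limma adjusted p = 0.0019), so that intensity fell by 50.3%. It passed in each of the 22 other settings, with differences of -1.14 to -0.91. The list median was 0.22, with 9 of 13 differences above 0, against 10056 of 19935 over all genes.

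Lipn, a lipase of the granular layer, rose, alone among 10 genes of acylceramide synthesis and the lipid envelope (list median -0.085). It was at 6.69, 6.34, 6.11 and 6.59 in knockouts, against 6.03, 5.59, 5.87 and 5.41 in wild type (difference 0.71, SE 0.16, limma adjusted p = 0.027). The groups did not overlap, and 12.2% of all genes had all knockouts above all wild types. The call was lost in 5 of the 8 fits that left out 1 array, those without knockout array 1, 2 or 4 or wild-type array 2 or 3 (limma adjusted p up to 0.080). Cers5, a ceramide synthase of broad expression, was the 1 gene of 15 in ceramide synthesis that rose. For both lists, 1 rise is near the 6.41% of all genes called higher. Cers5 had means of 6.65 ± 0.053 in knockout and 6.27 ± 0.13 in wild type (SD, n = 4, difference 0.38, SE 0.095, limma adjusted p = 0.036). It lost its call in 5 of those 8 fits, without knockout array 1, 2 or 3 or wild-type array 2 or 3 (limma adjusted p up to 0.10).

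**Figure D4:**
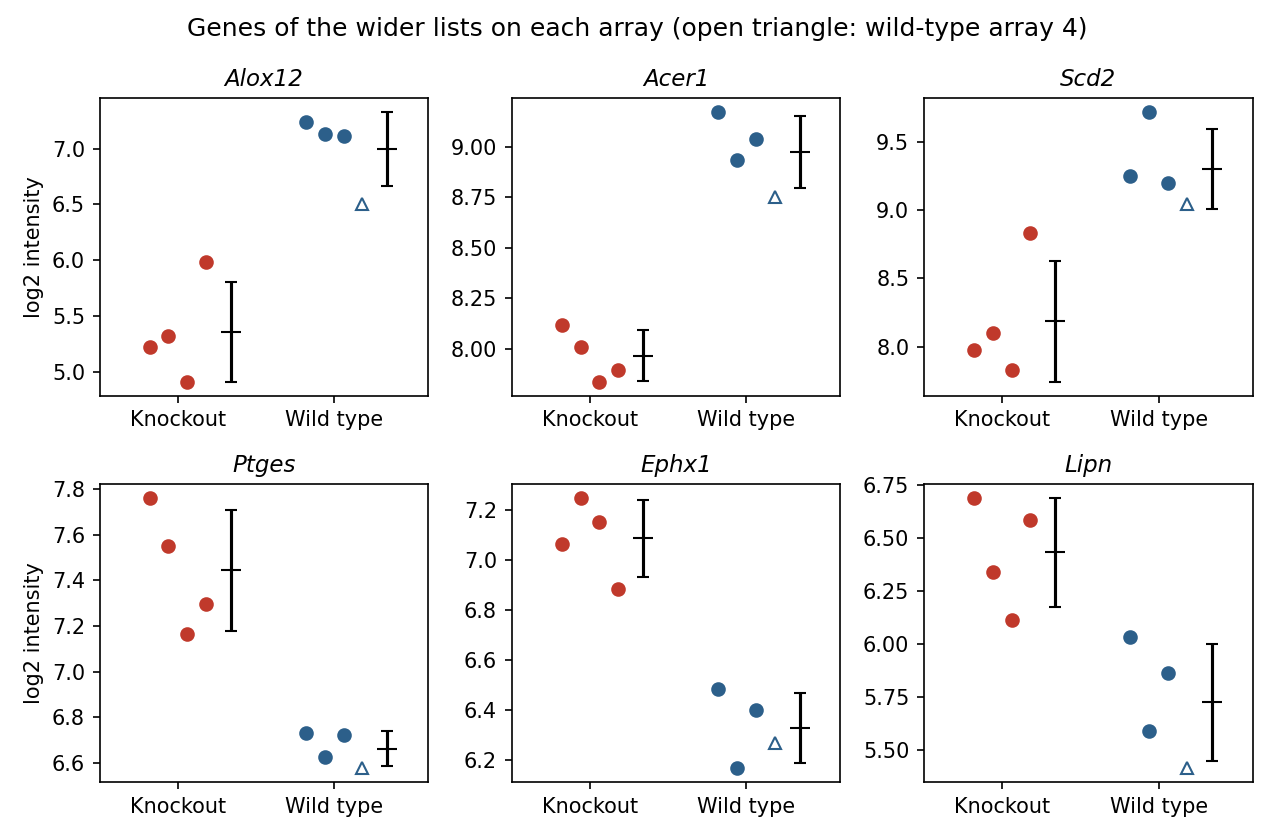
Log2 intensity (vertical axes) of Alox12, Acer1, Scd2, Ptges, Ephx1 and Lipn on 4 knockout arrays (red, left) and 4 wild-type arrays (blue, right), each point 1 array, with group mean and SD as a bar beside the points and wild-type array 4 as an open triangle. The groups do not overlap for any of the 6 genes, and they lie nearest for Lipn, with knockout 3 at 6.11 and wild type 1 at 6.03. All 6 were named because they were called, so the separation is no separate support. Over all genes, 5.86% had all knockouts below all wild types and 12.2% had them above.

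None of the 8 genes of lamellar granule transport and none of the 9 measured regulators passed limma, with 1 gene in each list at an unadjusted p below 0.05, against 25.1% of all genes. Cav1, the scaffold protein of caveolae, was at 7.94, 8.04, 8.01 and 7.80 in knockouts and 6.91, 6.66, 6.88 and 8.11 in wild type (difference 0.81, SE 0.27, limma adjusted p = 0.091). Wild type 4 lay above all knockouts and the other wild types below them, and without that array the difference was 1.13 (limma adjusted p = 0.00042). Nr1h3, the liver X receptor alpha, had a difference of -0.47 (SE 0.20, limma adjusted p = 0.17), with wild type 4 at 4.66 and the other wild types at 3.71 to 3.85, against 3.32 to 3.75 in knockouts.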

How the data were processed

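RNA of 4 knockout and 4 wild-type mouse skin samples was extracted on columns, biotin-labelled and hybridised to Affymetrix Mouse Gene 1.0 arrays, per the labels' protocols. Each probe set has 1 deposited intensity per array, which the authors obtained by RMA, per the submitters' processing notes. This method (RMA) subtracts background, equalises arrays and summarises probes. How it was run was not given in the sources used here. The values run from 0.817 to 11173, so they were read as linear, and log2 was taken with no pseudocount. Of 35519 probe sets 21780 carried exactly 1 symbol, 1605 several and 12134 none. Symbols were checked by Entrez identifier against RefSeq (GRCm38.p6), where 21689 matched and 0 changed. The probe set with the highest mean was kept for each of 19935 genes, with no filter on dim genes.

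Genotypes were compared with limma 3.58.1 in R 4.3.3 (lmFit, eBayes, two-sided), adjusted by Benjamini-Hochberg over all 19935 genes, threshold 0.05. The p-values measure the spread between these samples, since the labels do not say that each is a separate animal. The fit was tested on simulated data. Replicate numbers follow accession order and pair nothing. The members, lists, naming rule and alternatives were chosen with earlier results of these data known. Named are the members, Adam10, up to 3 rises and 3 falls per wider list (or the smallest p), and the 5 genes most like Alox12e and Alox12b; Alox15 and Ephx3 were added after their values were seen. Arrays give no depth, and their number limits the precision.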

Additional observations from a re-analysis of the deposited data

Results flagged for a closer look

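Of 46 groups of 4 values checked with Dixon's ratio (23 named genes, 2 genotypes), 6 held a value set apart from the other 3, and chance flags about 1 in 20 groups. Alox12e was at 6.69 on wild-type array 4, against 7.12 to 7.20 on the other wild-type arrays. Cers3 was at 8.96 on knockout array 3, against 9.32 to 9.33 on the other knockouts. Alox5 was at 3.51 on knockout array 2 (others 3.76 to 3.78), and Ptgs2 at 4.18 on that array (others 4.56 to 4.62). Nr1h3 was at 4.66 on wild-type array 4 (others 3.71 to 3.85), and Adam10 at 7.06 on wild-type array 3 (others 7.33 to 7.39).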

How the results depend on the processing

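No paired analysis was possible because the labels give no replicate numbers shared by the genotypes. The 22 alternatives were 3 normalizations between arrays, a filter on dim genes, an offset of 16, the mean of probe sets, all probe sets, another prior, array weights, thresholds of 0.01 and 0.10, leaving out each of 8 arrays, leaving out wild-type arrays 3 and 4, a muscle marker covariate and, chosen after seeing the data, centring each array on 21 spinous and granular markers (epidermal centring). In all 22, 1 member (Alox12e) was called lower and 0 higher. The thresholds of 0.01 and 0.10 reuse the main fit, and averaging probe sets leaves the values of genes with 1 probe set unchanged. The 6 lower and 5 higher genes of the wider lists became 10 lower under quantile normalization and under cyclic loess, 15 lower and 8 higher with array weights, 2 lower and 3 higher at 0.01, 12 lower at 0.10, 3 higher over all probe sets and 3 higher under epidermal centring. With 1 array left out they ran from 2 to 12 lower and from 3 to 8 higher. Over all genes, 467 lower and 1277 higher became 847 higher under quantile normalization, 769 higher under cyclic loess, 286 lower and 2453 higher after median centring (median difference of all genes 0.10), 307 and 792 over all probe sets, 1216 and 2405 with array weights, 128 and 350 at 0.01, 898 and 2060 at 0.10, 591 higher without wild-type arrays 3 and 4, and 189 and 617 under epidermal centring. With 1 array left out they ran from 161 to 647 lower and from 426 to 1417 higher. Adam10 passed under quantile normalization (-0.46, limma adjusted p = 0.033), cyclic loess (-0.49), without dim genes (-0.36), with the offset (-0.32), with the trended and robust prior (-0.36) and at 0.10 (-0.36). Cav1 was called higher in 6 of 22 alternatives, with differences of 0.81 to 1.29. These were median centring, array weights, the threshold of 0.10, the muscle covariate, and leaving out wild-type array 4 or wild-type arrays 3 and 4. Of the 8 pairs with Alox12e, which share its values and are no separate support, 7 passed an exact permutation test adjusted over the pairs, 6 to 7 with 1 array left out and 0 at 0.01, which 70 assignments cannot reach; that test was not run with weights, a covariate, wild-type arrays 3 and 4 left out or dim genes (Alox8 among them) left out. Calls were lost in 15 of 21 alternatives for Alox5, 13 of 21 for Fa2h, 12 of 22 for Cers5, 9 of 22 for Lipn, 2 of 22 for Scd2, 2 of 21 for Elovl3 and 1 of 21 for Ptgs2, the lower totals leaving out the filter that drops dim genes. Signs turned, with no call, for Aloxe3 under median centring (0.077) and epidermal centring (0.0031) and from -0.23 to 0.085 with 1 array left out. They turned for Pnpla1 under cyclic loess (-0.015), array weights (-0.036), the muscle covariate (-0.20) and without wild-type arrays 3 and 4 (-0.093), with -0.087 to 0.23 with 1 array left out. For Abca12 they turned under the covariate (-0.26) and without those arrays (-0.14), with -0.074 to 0.40 with 1 array left out. The cause was not tested. Probe sets with no detection call limit what can be said of Alox8, Elovl3 and Fa2h.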
